A study of Arabidopsis thaliana with 2 samples.

Results

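The regions described here are 640 weaker sites at gene ends where CCA1 was found by both sequencers, out of 1499 stretches of the nuclear chromosomes common to both peak lists (42.7%). They were selected on measured values. A peak of the IonPGM list had to share 1 bp or more with a peak of the Illumina list, and the stretch held by both is called a shared segment. The midpoint of the segment had to lie up to 1000 bp outside, or up to 200 bp inside, the nearest end of a protein-coding gene, which 939 segments met. Each peak was then given the percentile of its score within its own list, where 100 is the highest score. A gene-end segment counts as weaker when the mean of its 2 percentiles is under 75, and as strong otherwise. By that threshold 640 of the 939 gene-end segments (68.2%) are weaker and 299 are strong. The other shared segments, 303 inside gene bodies and 257 far from any coding gene, are not described.

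Both libraries were made from Col-0 background seedlings of Arabidopsis thaliana by chromatin immunoprecipitation sequencing (ChIP-seq), in which DNA cross-linked to a chosen protein is recovered and sequenced. The plants of both groups were cca1 lhy double mutants that carried CCA1-FLAG driven by the CCA1 promoter, so the epitope-tagged protein stood in for native CCA1 and the related factor LHY was missing throughout. Whole seedlings were grown for 14 days at 22 °C with 2% sucrose under 12 h of light and 12 h of darkness and fixed 1 h after lights on, so the peaks mix all seedling tissues at a single time. Each sequencer, an Ion PGM and an Illumina GAII, contributed 1 library, and its peak list held 2901 and 2954 peaks. The depth of both is unknown, no replicate error can be given, and whether the libraries share their immunoprecipitated DNA is not stated in the sources used here.

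In the plant circadian clock, CCA1 is a transcription factor of the MYB type that accumulates around dawn. It binds DNA near gene starts, above all at the evening element and related short motifs, and is best known for holding down genes that peak in the evening. ChIP-seq peaks of such a factor span strong and weak contacts, and a weak peak says nothing of whether the gene beside it responds.

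The selection kept segments near a gene end, and the position of the weaker ones within that window was as follows. Of the 640 midpoints, 476 (74.4%, 95% interval 70.8 to 77.7%) were outside coding genes and 164 (25.6%, 22.3 to 29.2%) were inside one, by up to 200 bp. The outside midpoints stood a median of 215 bp from the gene, with the middle 50% between 95.4 and 480 bp. In steps of 100 bp outward from the gene end, 125 segments (19.5%), 105 (16.4%), 71 (11.1%), 32 (5.0%) and 28 (4.38%) were counted, and 115 (17.97%) lay between 500 and 1000 bp. The steps next to the gene held the most, and the count fell at each step out to 500 bp. The selection bears on this profile, since a midpoint was kept for its distance to the nearest end and the flanking genes stood a median of 1746 bp apart.

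**Figure D1:**
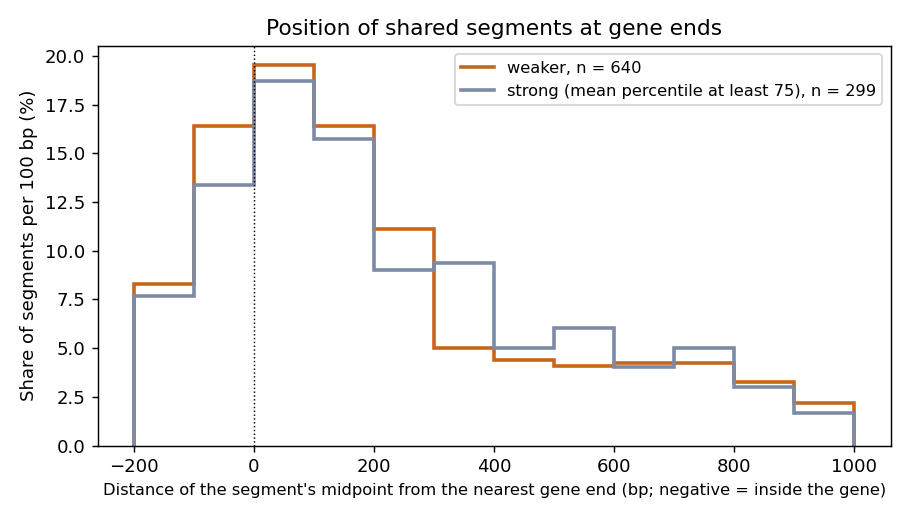
Share of weaker (orange, n = 640) and strong (grey, n = 299) shared segments per 100 bp of distance between the segment's midpoint and the nearest gene end, in bp, with negative values inside the gene. Left out of the curves are 6 weaker and 4 strong midpoints that lie inside one gene but nearest the end of another. The first 100 bp outside the gene hold 19.5% of the weaker and 18.7% of the strong segments.

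Which end of a gene is its start is not given by the annotation used here, so starts and stops could not be told apart, and the label of a gene end means either. For 358 segments (55.9%) a single coding gene was in reach, for 265 (41.4%) 2 genes were, and for 17 (2.66%) at least 3 were. Among the 282 segments with several genes in reach, the next gene was at most 100 bp farther away than the nearest in 90 (31.9%). For those the assignment to a gene rests on a short difference in distance. Genes named below are among them, such as STH (6 bp), HCC1 (19 bp) and FBA5 at one of its ends (22 bp). The segments had 628 different nearest genes, which is 2.29% of the 27444 nuclear coding genes, and 915 genes (3.33%) had a weaker midpoint in reach of an end. The strong segments had 296 nearest genes, or 1.08%. The chromosomes carried similar densities, from 22.0 weaker segments per 1000 coding genes on chromosome 2 to 24.6 on chromosome 1. The weaker share of the gene-end segments ran from 65.8% on chromosome 5 to 70.4% on chromosome 1.

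The percentiles that defined the weaker segments spread over most of each list. In the IonPGM list they ran from 0.138 to 92.5 with a median of 49.0. In the Illumina list they ran from 0.542 to 96.5 with a median of 53.7. The Illumina percentile was the higher in 346 segments (54.1%) and the IonPGM percentile in 294 (45.9%). In 444 segments (69.4%) both peaks were under the 75th percentile of their list, while 119 (18.6%) reached it in the Illumina list and 77 (12.0%) in the IonPGM list. Both peaks were in the upper part of their lists, at or above the 50th percentile, in 177 segments (27.7%), and both under the 25th in 37 (5.78%).

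**Figure D2:**
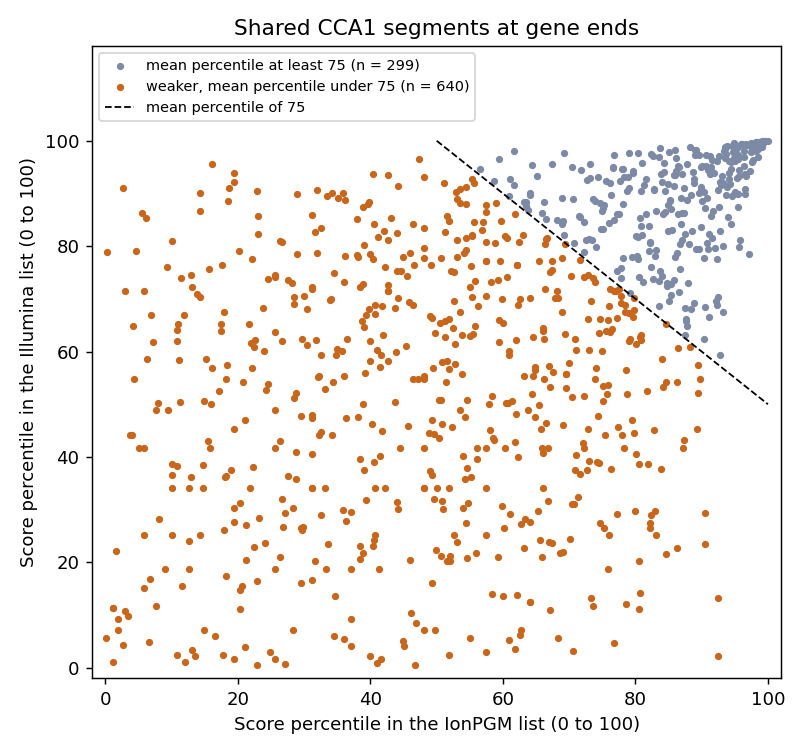
Score percentile of the Illumina peak against that of the IonPGM peak for the 939 shared gene-end segments, each axis from 0 to 100, with weaker segments in orange (n = 640), strong ones in grey (n = 299) and the threshold as a dashed line. Weaker segments fill the area below the line, including corners where 1 list ranks the site high and the other low.

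The sequencers often ranked the same weaker site differently. The median distance between the 2 percentiles of a segment was 23.7 points, and in 140 segments (21.9%) it was at most 10 points. In 82 segments (12.8%) it was over 50 points, with the Illumina percentile higher in 51 and the IonPGM percentile higher in 31. The strong segments had a median distance of 6.78 points, but a mean of at least 75 cannot hold percentiles more than 50 points apart, so the threshold itself narrows that spread and no test was made.

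The selection asked for an overlap of at least 1 bp, which itself limits how far apart the 2 peaks of a segment can lie. Peak centres in the 2 lists lay a median of 37 bp apart (26.5 bp for strong segments), and within 50 bp in 410 of the 640 segments (64.1%). The segment covered at least 90% of the narrower peak in 448 (70.0%), and was shorter than 50 bp in 4. The weaker segments had a median width of 216 bp (range 11 to 605 bp) against 292 bp for the strong ones. The underlying peaks had median widths of 246 bp (IonPGM) and 278 bp (Illumina), against 319 and 362 bp for the strong segments. Width followed the percentile along the whole range: the median segment was 185.5 bp at mean percentiles under 25, 203 bp from 25 to 50, 229 bp from 50 to 75, 270 bp from 75 to 90 and 333 bp from 90 upward. Width and score come from the same peak calls, so this is a description of those calls.

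The threshold does not mark a gap. Just under it stood the segment at CYP71B26, a cytochrome P450 gene, on TAIR10 chr3:9634904-9635124, 192 bp outside the gene, with percentiles of 79.8 by IonPGM and 70.2 by Illumina. AT2G39710 followed with 84.6 and 65.3, and AT3G07460 with 69.4 and 80.4. Just above it stood LIG6, a DNA ligase gene, with 60.9 and 89.4 (mean 75.2), AT3G12180 with 79.1 and 71.2, and AT5G64550 with 87.4 and 63.1. In these 6 segments the higher rank came from either sequencer. Other high members were TRP1 (AT5G59430), which encodes a telomere repeat binding protein, at 88.2 and 60.9, HCC1, a protein of copper delivery to cytochrome oxidase, at 77.1 and 71.5, and PUB19, a U-box ubiquitin ligase, at 55.4 and 92.8. Of these 3, PUB19 was the one with the higher rank in the Illumina list.

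At the low end, the segment at AT1G26160 on chr1:9044147-9044157 was 11 bp wide and ranked at 1.17 by IonPGM and 1.03 by Illumina. The segment at AT1G12030 ranked at 0.138 and 5.70, and that at AT5G61450 at 1.96 and 7.23. The midpoint of the segment nearest AT5G61450 lay inside a small nuclear RNA gene, AT5G61455. CP12-2, which encodes a small regulator of the Calvin cycle, had a segment 17.5 bp outside the gene on chr3:23090867-23090986 with percentiles of 1.83 and 9.26. These sites were picked for the lowest mean percentiles, so low ranks in both lists follow from that choice.

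At a few sites the sequencers gave very unequal ranks. At AT5G09580 the IonPGM percentile was 92.5 and the Illumina percentile 2.23, and the same IonPGM peak reached a second, separate Illumina peak (13.2) nearest MTHSC70-2, a mitochondrial heat shock protein gene. The midpoint of the segment nearest AT5G09580 lay inside a small nuclear RNA gene, AT5G09585. RABA1d, a small GTPase gene of membrane traffic, had 70.5 by IonPGM and 3.11 by Illumina, and AT4G16490 had 80.5 and 11.1. In the opposite direction, AT2G41550 had 2.64 by IonPGM and 91.1 by Illumina. RPS2, a disease resistance gene, had 16.03 and 95.6 on chr4:13223511-13223896. CESA5, a cellulose synthase subunit gene, had 6.14 and 85.4 on chr5:3078783-3078965. With 1 library per sequencer, library and sequencer cannot be told apart at these sites.

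Among 24 gene lists, 66 of 1069 genes (6.17%) held the nearest end of a weaker segment and 64 (5.99%) that of a strong one. Over all coding genes the shares were 2.29% and 1.08%, and in the housekeeping control list 5.88% and 2.94%. These shares are the background for each list count below. The lists name well-studied genes, and of all 10374 coding genes with a symbol in the annotation 3.09% had a weaker segment. Since the segments were chosen on their binding, these counts describe where the members lie and nothing is read from their sizes.

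**Figure D3:**
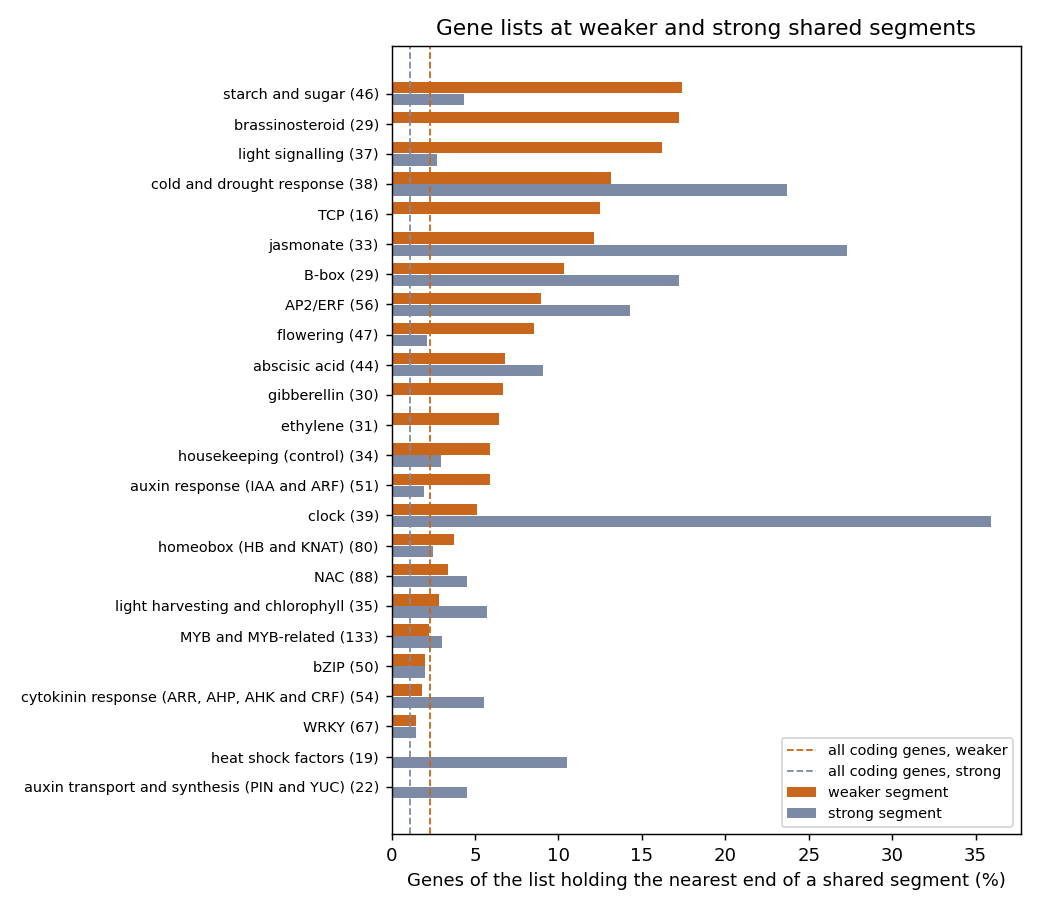
Percent of the genes of each list (number of genes in brackets) that hold the nearest end of a weaker (orange) or strong (grey) shared segment, with dashed lines at 2.29% and 1.08% for all coding genes. The clock list has 2 weaker against 14 strong genes of 39, and the starch and sugar list 8 against 2 of 46.

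The clock list was chosen with earlier results known, so nothing is read from its counts. Of its 39 genes, 14 had a strong segment (1.08% over all coding genes) and 2 had a weaker one (2.29% over all coding genes). The first was CHE (AT5G08330, drawn as TCP21), a TCP factor known to repress CCA1, with 51.5 by IonPGM and 58.1 by Illumina on chr5:2679735-2679927, 570 bp from the gene. The second was LNK3, of the LNK family of clock coactivators, with 66.8 and 31.7 on chr3:3923367-3923646, 8.5 bp from the gene. CHE ranked alike in both lists, while LNK3 ranked higher in the IonPGM list.

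Of 37 light signalling genes, 6 had a weaker and 1 a strong segment. CRY2, a blue light receptor, had 45.9 by IonPGM and 78.8 by Illumina, 86 bp inside the gene on chr1:1188449-1188771. SPA1, a partner of the COP1 ubiquitin ligase, had 28.2 and 73.0. FHL, which helps bring phytochrome A into the nucleus, had 73.3 and 13.2. PIF5, a phytochrome-interacting bHLH factor of growth in the dark, had 22.3 and 38.1 on chr3:21827647-21827832. PAR1 and PAR2, related HLH proteins that restrain shade growth, both had a segment, with 72.0 and 42.7 for PAR1 and 12.9 and 74.6 for PAR2. The order of the sequencers thus differed from gene to gene, also between the closely related PAR1 and PAR2. In the list of light harvesting and chlorophyll genes, 1 of 35 had a weaker segment and 2 a strong one. That gene was LHCB4.1, an antenna protein of photosystem II, with 71.0 by IonPGM and 40.3 by Illumina.

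Starch and sugar metabolism had 8 of 46 genes with a weaker and 2 with a strong segment. They included enzymes of starch synthesis. GBSS1, the starch synthase bound to the granule, had 22.4 by IonPGM and 60.9 by Illumina, 9.5 bp inside the gene on chr1:11923763-11923950, and the soluble starch synthase SS1 had 22.9 and 16.5. The debranching enzyme ISA1 had 82.3 and 29.0. Enzymes of starch breakdown were also present. The debranching enzyme ISA3 had 64.1 and 12.5, the glucan phosphatase SEX4 had 78.6 and 12.0 on chr3:19353640-19353862, and the glucanotransferase DPE1 had 49.6 and 32.0. The beta-amylase BAM5 had 45.8 and 69.4, and SPS1F, a sucrose phosphate synthase, had 40.0 and 58.1. Of these 8 genes, GBSS1, BAM5 and SPS1F ranked higher in the Illumina list and the other 5 in the IonPGM list.

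Cold and drought genes had 5 weaker and 9 strong of 38. CBF4, an AP2 factor of the drought response, had 38.4 by IonPGM and 72.2 by Illumina on chr5:21117869-21118248. The dehydrin ERD10 had 36.5 and 62.3, and RD26, a NAC factor, had 38.8 and 50.1. GOLS2, which makes galactinol, had 55.0 and 5.59. The zinc finger gene ZAT12 (RHL41) had 2 members at the same end, one 842 bp outside with 60.7 and 50.2 and one 16 bp inside with 26.4 and 81.0. GOLS2 was the single gene of the 5 with all its signal ranked higher in the IonPGM list.

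Hormone genes were spread over several pathways. Of 44 abscisic acid genes, 3 had a weaker and 4 a strong segment, and 1 of these, HAI2, had both. PP2CA, a phosphatase that damps abscisic acid signalling, had 2 members at opposite ends, on chr3:3585831-3586098 with 71.6 by IonPGM and 77.4 by Illumina and on chr3:3582725-3582916 with 69.5 and 55.7. The kinase SNRK2.3 had 77.2 and 66.4. HAI2, a phosphatase of the same family as PP2CA, had a weaker segment at 2.59 and 4.35, with the next gene only 39 bp farther away.

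Brassinosteroid genes had 5 weaker and 0 strong of 29. They were transcription factors or their relatives. PRE1, a small HLH protein of growth, had 80.8 by IonPGM and 63.1 by Illumina. The bHLH factor BEE1 had 49.8 and 63.6. Of the relatives of BES1 and BZR1, BEH3 had 68.3 and 70.2, BEH4 had 17.5 and 64.0, and BEH1 had 82.9 and 29.7 at one end of the gene and 57.8 and 50.1 at the other. BEH3 ranked alike in both lists, and BEH4 was the lowest of the list in the IonPGM list.

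The jasmonate list had 4 weaker and 9 strong of 33. Its strong genes were JAZ1, JAZ6, AOC1, AOC2, LOX2 and the TOPLESS-type corepressor genes TPL, TPR1, TPR2 and TPR3. Of the weaker ones, JAZ3, JAZ5 and JAZ9 encode repressors of jasmonate responses, and AOC4 an allene oxide cyclase of jasmonate synthesis. JAZ3 had 50.4 by IonPGM and 65.4 by Illumina, and JAZ5 had 49.6 and 44.3. JAZ9 had 79.5 and 47.1 on chr1:26657485-26657763 and, at its other end, 38.1 and 77.9 on chr1:26654495-26654697, so the order of the sequencers was opposite at the 2 ends. AOC4 had 78.3 and 41.7, 186.5 bp inside the gene.

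Of 30 gibberellin genes 2 had a weaker and 0 a strong segment, and the same counts held for 31 ethylene genes. GID1C, a gibberellin receptor, had 55.0 by IonPGM and 72.3 by Illumina, and GA2, an enzyme of gibberellin synthesis, had 60.5 and 50.3. EBF1, an F-box protein that removes the ethylene factor EIN3, had 54.4 and 88.0. ACS8, which makes the ethylene precursor, had 19.5 and 93.9, the widest gap of these 4 genes. Auxin response genes had 3 weaker and 1 strong of 51, with ARF2 at 55.3 and 70.4, SHY2 (IAA3) at 66.6 and 46.5 and IAA1 at 31.2 and 16.6. Among cytokinin response genes 1 of 54 had a weaker segment and 3 a strong one. It was CRF6, at 63.0 and 82.1. The auxin transport and synthesis list had 0 weaker and 1 strong of 22.

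Flowering genes had 4 weaker and 1 strong of 47. CDF1, a DOF factor that represses CONSTANS, had 74.99 by IonPGM and 60.0 by Illumina on chr5:25071333-25071551, and its relative CDF5 had 90.6 and 23.4 on chr1:26164356-26164719. The floral identity gene AP1 had 74.5 and 38.8, and MAF4, a relative of the floral repressor FLC, had 37.1 and 18.7. Each of the 4 ranked higher in the IonPGM list. The housekeeping list, chosen as a control, had 2 weaker and 1 strong of 34, with GAPC1 at 41.2 and 81.8 and UBQ3 at 31.7 and 82.6, both higher in the Illumina list.

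**Figure D4:**
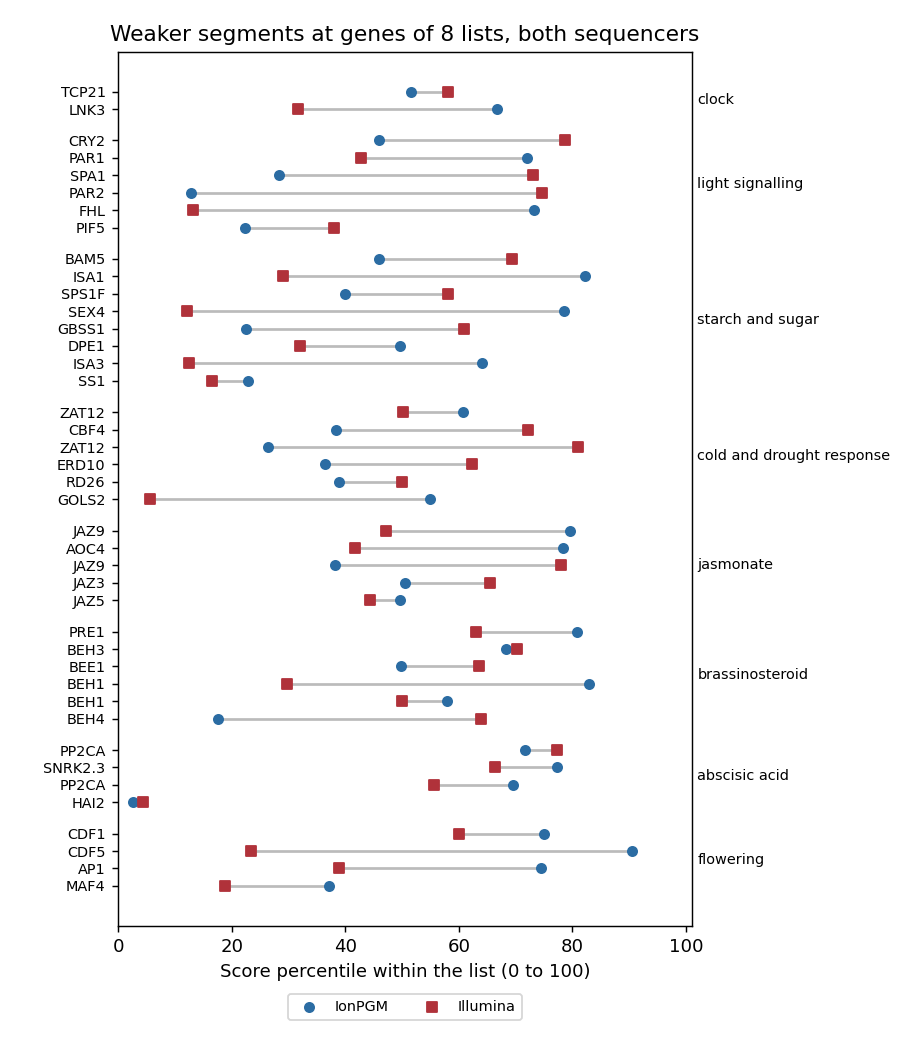
Score percentile, from 0 to 100, in the IonPGM list (circles) and the Illumina list (squares) for each weaker segment nearest a gene of 8 lists, joined by a line. A gene with 2 segments appears in 2 rows. The order of the sequencers varies within 7 of the lists, while in the flowering list all 4 genes have the higher percentile in the IonPGM list.

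Transcription factor families, taken by gene symbol, each contributed a few members, some of them already counted in the lists above. B-box genes had 3 weaker and 5 strong of 29 (STH at 79.0 by IonPGM and 62.0 by Illumina, BBX14 at 27.5 and 73.5, BBX15 at 44.0 and 31.5). AP2/ERF genes had 5 weaker and 8 strong of 56. All 8 strong ones and the weaker CBF4 and CRF6 were also counted in the cold and drought or cytokinin lists. The other weaker ones were DEAR3 (43.2 and 85.3), ERF6 (6.91 and 67.0) and ERF53 (7.204 and 61.9), each ranked higher in the Illumina list. NAC genes had 3 weaker and 4 strong of 88, and MYB genes had 3 and 4 of 133, with MYB77 at 55.3 and 81.9. The homeobox list had 3 weaker and 2 strong of 80. HB6, HB16 and HB24 all ranked higher in the Illumina list, at 88.5, 82.5 and 77.8 against 18.5, 44.0 and 48.1 in the IonPGM list. TCP genes had 2 weaker and 0 strong of 16, CHE and TCP3 (45.1 by IonPGM and 4.05 by Illumina). Heat shock factors had 0 weaker and 2 strong of 19, WRKY genes 1 and 1 of 67, and bZIP genes 1 and 1 of 50.

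Of the 628 genes, 12 (1.91%) had 2 weaker segments and 0 had more. The 2.29% of all coding genes with a weaker segment is a different measure, so the shares are not compared. In 6 of the 12 the segments lay at opposite ends of the gene. Besides PP2CA, JAZ9 and BEH1 these were AT5G66052, FBA5, a fructose bisphosphate aldolase gene, and BT1, a BTB protein gene. FBA5 had 50.4 by IonPGM and 50.9 by Illumina at one end and 51.9 and 84.8 at the other. BT1 had 17.5 and 76.5 at one end and 40.3 and 23.2 at the other. Some pairs at the same end share a peak: at OXS2 and at GILP a single IonPGM peak reached 2 separate Illumina peaks, and at AT5G54710 a single Illumina peak reached 2 IonPGM peaks. Across all members, 10 of 640 (1.56%) shared a peak with another shared segment.

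Some weaker segments had a strong one nearby. In 8 of 640 cases (1.25%) a strong gene-end segment lay within 2000 bp. The same share was not counted for other segments, so nothing is read from it. Of the 628 genes, 5 (0.796%) also held the nearest end of a strong segment, beside 1.08% of all coding genes, and nothing is read from the difference. At HAI2 the weaker segment (2.59 by IonPGM and 4.35 by Illumina) and the strong one on chr1:2282898-2283241 (96.3 and 98.9) lay at opposite ends. The weaker one was only 39 bp nearer to HAI2 than to AT1G07420, so its assignment rests on a short difference. At OZF2, a zinc finger gene, the weaker one had 39.7 and 68.0 and the strong one, at the other end, 96.6 and 93.3. At DIN10, a gene induced in darkness, both lay at the same end, with 37.1 and 9.26 for the weaker one 954 bp out and 82.2 and 80.5 for the strong one 389 bp out. AT1G02350 and AT3G61260 were the others, and at AT3G61260 the weaker segment was a 26 bp overlap with the same Illumina peak that made the strong one.

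Further features were then compared between the 640 weaker and the 299 strong gene-end segments. Position against coding genes was part of the selection of both kinds. The shares that rest on it directly are therefore given as descriptions, and their tests are not read. Midpoints inside a coding gene made up 25.6% (22.3 to 29.2%) of the weaker and 22.4% (17.8 to 27.6%) of the strong segments, a difference of 3.22 points. Ends of at least 2 coding genes were in reach for 44.1% (40.2 to 48.0%) and 39.5% (33.9 to 45.3%), a difference of 4.60 points.

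For the annotation under and beside the segments, two-sided Fisher's exact tests were chosen after the planned motif tests could not be run, with p-values adjusted over all 4 features compared. Segments are the units, so the tests describe these 2 peak lists and not plants. The nearest gene had at least 2 annotated transcripts for 48.9% (45.0 to 52.9%) and 45.8% (40.1 to 51.7%), a difference of 3.09 points that did not pass the test (Fisher's exact p = 0.40, adjusted 0.40). The intervals overlap, which does not show that the kinds are alike. The midpoint lay in a gene that does not code for protein for 48 of 640 weaker segments (7.50%, 5.58 to 9.82%) and for 30 of 299 strong ones (10.03%, 6.87 to 14.0%). That difference of -2.53 points did not pass the test either (Fisher's exact p = 0.20, adjusted 0.40). Where a midpoint can fall was bounded by the selection of both kinds, so nothing is read from that test. Of the weaker midpoints, 25 were in long non-coding RNA genes, 9 in transfer RNA genes and 5 in small nuclear RNA genes. The strong ones had 20, 4 and 2. Miscellaneous RNA genes held 6 weaker and 3 strong midpoints. The share of all genes of these classes with a segment was not counted, so nothing is read from these counts. The 9 transfer RNA genes stood beside F2KP, AT1G11020, VAB3, AT3G51270, AT4G26370, PMDH2, SAUR24, AT5G25630 and MBD6 as the nearest coding genes.

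The position of the midpoint was also compared along the percentile range. Midpoints inside a coding gene made up 24.3% (15.1 to 35.7%) of the 74 segments with a mean percentile under 25, 24.2% (18.8 to 30.3%) of the 227 from 25 to 50 and 26.8% (22.2 to 31.9%) of the 339 from 50 to 75. The 186 strong segments from 75 to 90 had 22.6% (16.8 to 29.3%) and the 113 from 90 upward 22.1% (14.9 to 30.9%). These intervals overlap throughout, and the median distance of the outside midpoints showed no order with the percentile, at 241.5, 190.75, 222, 297 and 195.5 bp.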

How the data were processed

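Anti-FLAG ChIP-seq peaks of CCA1 were taken from 2 libraries, 1 per sequencer. The submitters' processing notes name Bowtie 0.12.7, SAMtools 0.1.18, MACS2 and the TAIR10 build. The sources used here do not state the threshold for peaks, a control library or filters. The authors deposited 1 peak list per sample, each peak with a score of unstated scale that is their own value. That score served only to rank peaks within its list, as a percentile over the whole list. Ranks from the 2 lists are set side by side as ranks, not as amounts of bound protein. Intervals were taken as 0-based and half-open, and printed positions are 1-based. Depth is unknown, so no interval was set on a peak's signal.

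Genes came from an NCBI RefSeq table of TAIR10.1, whose nuclear sequences are those of TAIR10; it gives no strand or exons, so gene starts, introns and UTRs were not assigned and none of its coordinates is printed. No genome sequence was used here, so no sequence is printed and the planned motif and gene-start tests were not run; Fisher's exact tests on 4 features took their place, of which those on position are bounded by the selection and are given as descriptions only. Intervals of shares are exact (Clopper-Pearson, 95%) and cover counting error only. Benjamini-Hochberg adjustment ran over the 4 features.

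The members and the 24 gene lists were chosen with earlier results of these data known. Of the names in the 12 lists by name, 415 were found by symbol and 29 by locus. Most genes were named from groups set by rule, though not every gene of a group is named. The groups were list members, the 10 highest and 5 lowest members, and the 5 just above the threshold. Further groups were the 5 most unequal in each direction, and genes with 2 members or with both kinds. Other genes, such as those of the families noticed later, were named outside these groups. The code was tested on simulated data. Scripts ran under Python 3.11.15 with pandas 2.3.3, SciPy 1.17.1, NumPy 2.4.6 and, for figures, Matplotlib 3.10.9.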

Additional observations from a re-analysis of the deposited data

How the results depend on the processing

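The reported counts were 640 segments, 628 nearest genes and 66 list genes. Taking a mean percentile under 50 as weaker left 301 segments, 300 genes and 27 list genes. Under the other settings the counts ran from 444 to 663 segments, 441 to 915 genes and 46 to 78 list genes. The signs of small differences between weaker and strong segments were not stable. With the threshold at 50, the difference in midpoints inside a coding gene became -0.512 points, that in genes with several transcripts -0.122 points and that in midpoints in non-coding genes 0.487 points. Requiring a percentile under 75 in each list turned the first to -1.38 points and the last to 1.76 points; the cause was not tested. Over the alternatives the lowest adjusted Fisher's exact p was 0.291 for genes with several transcripts and 0.131 for midpoints in non-coding genes. The value of 0.131 came with the nearest end taken among all annotated genes, where non-coding genes also decided which segments were kept. An overlap of at least 50% of both peaks kept 571 of the 640 members, and a window of 500 bp outside kept 525. Counting no bases inside genes kept 479 and gives no share inside the gene. The planned motif windows were not run. No paired analysis was possible because each sequencer has 1 library, and for the same reason no replicate could be left out. Depth is unknown, so a site missing from 1 list cannot be called unbound.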

Other observations

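Further gene families with weaker segments were noticed after their values had been seen, so they are given as descriptions with no test. Each family holds only the genes taken by symbol or by a list of names. Over all coding genes 2.29% had a weaker and 1.08% a strong segment. A family noticed for its members has a high share by that choice, so nothing is read from the counts. Of 14 aldehyde dehydrogenase genes, whose enzymes remove reactive aldehydes, 4 had a weaker and 0 a strong segment. ALDH5F1 had 44.2 by IonPGM and 91.5 by Illumina, ALDH3H1 had 57.4 and 77.1, ALDH6B2 had 87.2 and 41.7, and ALDH7B4 had 55.8 and 64.8. Of 23 syntaxin genes, which encode membrane fusion proteins, 4 had a weaker and 0 a strong segment, with SYP52 at 62.0 and 62.1 and SYP132 at 60.9 and 59.3 ranked alike by both sequencers. The SYP52 segment was as near to the end of AT1G79600, the single tie among the members, so SYP52 counts here by the order of the annotation. SYP122 had 25.5 and 74.1, and SYP42 had 54.3 and 35.8. Of 15 genes of salicylic acid defence, 5 had a weaker and 0 a strong segment. The receptor NPR1 had 53.5 and 49.0, the immune receptors SNC1 and SNC4 had 76.2 and 71.9 and 54.6 and 50.9, and the transcription factor SARD1 had 34.8 and 59.3. RPS2, described above, was the fifth.

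Of 4 F-BOX STRESS INDUCED genes, 3 had a weaker segment, with FBS1 at 48.1 by IonPGM and 41.7 by Illumina, FBS4 at 28.8 and 40.9 and FBS3 at 5.08 and 41.7. Of 8 genes of cellulose synthesis, 3 had a weaker and 1 a strong segment. CESA1 had 83.9 and 37.7 and CSI1, which links the synthase to microtubules, had 64.1 and 27.7, while CESA5 ranked higher in the Illumina list. Of 13 genes of sphingolipid and sterol synthesis, 4 had a weaker and 0 a strong segment, with SLD1 at 73.9 and 73.2 and SBH1 at 32.6 and 83.5. Trehalose phosphate genes had 3 of each kind among 21, and SnRK-type and CBL-interacting kinases 3 weaker and 2 strong among 36.

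Some list genes were in reach of a weaker segment without being the nearest. TCP4, a regulator of leaf growth, was in reach of a segment nearest AT3G15040 with 51.9 by IonPGM and 2.45 by Illumina. PHS2, a cytosolic glucan phosphorylase, was in reach of a segment nearest PHT4;3 with 31.9 and 78.7. BZIP53 was in reach of the low segment nearest CP12-2.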
